A study of Mus musculus with 31 samples.

Results

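The cathepsin and legumain genes measured here were 9 cathepsins (Ctsa, Ctsb, Ctsc, Ctsd, Ctsh, Ctsk, Ctsl, Ctss and Ctsz) and legumain (Lgmn). They were taken by gene symbol, 10 of the 38406 symbols counted in every library, and all 10 were present in all 31 libraries. The libraries were bulk RNA-seq of leukocytes, sorted by the pan-leukocyte antigen CD45.2 from tumours of AT3-OVA, a mouse mammary carcinoma line of triple negative type engineered to express ovalbumin, grown in the mammary fat pad of wildtype female C57BL/6 mice. At day 5 after the end of local radiotherapy there were 6 libraries from tumours given 3 fractions of 4 Gy (3x4Gy) with 4 of mocks (3x0Gy), and 6 from tumours given a single dose of 20 Gy (1x20Gy) with 4 of mocks (1x0Gy). At day 13 there were 7 libraries of 1x20Gy and 4 of 1x0Gy. Mock animals received the same ketamine and xylazine anaesthesia without radiation, fractions were given on consecutive days, and the age of the mice was not given in the labels. The model is 1 tumour line, and the labels do not say whether each replicate was a separate mouse, so p-values measure the spread between these samples.

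Cathepsins are proteases made as inactive precursors, tagged with mannose 6-phosphate in the Golgi, carried to lysosomes and activated there at acid pH. Legumain, which cuts after asparagine, helps to turn several cysteine cathepsins into their mature forms. In macrophages and dendritic cells these enzymes digest engulfed material, and cathepsin S and legumain also take part in preparing antigens and the class II invariant chain. In tumours, macrophages are a well known source of cathepsins, some of which are secreted and cut the extracellular matrix.

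Libraries of leukocytes sorted from irradiated tumours held lower levels of Ctsd transcript than those from mocks in all 3 comparisons. Those from 1x20Gy tumours at day 13 also held lower levels of Ctsb and Ctsc. At day 5 the only one of the 10 genes to pass the test (edgeR quasi-likelihood, adjusted p below 0.05 over all genes) was Ctsd, lower both after 3x4Gy and after 1x20Gy. At day 13, 3 of the 9 genes that could be tested were lower, and none of the 10 was called higher in any comparison, by edgeR or by DESeq2. Among all genes tested, 12.3% were called in either direction after 3x4Gy, 8.55% after 1x20Gy at day 5 and 8.05% after 1x20Gy at day 13. The share called lower was 7.09%, 4.88% and 3.83% in the same order, so 1 of 10 is close to the background at day 5 and 3 of 9 is above it at day 13. The genes varied together within groups (median r 0.651 without Ctsk, over all 31 libraries), though most pairs less so within day 13 than within day 5. The counts of called genes are therefore descriptions and were not tested against the background. The share called higher was 5.2%, 3.67% and 4.22%. Every gene of the family but Ctsk had a fold change below 0 in all 3 comparisons, with a median log2 fold change of -0.32 after 3x4Gy, -0.54 after 1x20Gy at day 5 and -0.30 at day 13. Over all genes tested those medians were -0.004, 0.02 and 0.00521, and 50.5%, 47% and 49.3% of genes lay below 0. The libraries also held transcripts of epithelial cells and fibroblasts. With the mean of those markers in the edgeR fit, both day 5 calls of Ctsd were lost (adjusted p = 0.298 after 3x4Gy and 0.105 after 1x20Gy). Calls over all genes fell as well, from 1477 to 104 after 3x4Gy and from 1028 to 87 after 1x20Gy. With the macrophage marker mean, both day 5 calls of Ctsd held and all 3 calls at day 13 were lost. In that day 13 fit edgeR called 0 of all genes, against 891 without that mean. The losses therefore do not single out the family.

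**Figure D1:**
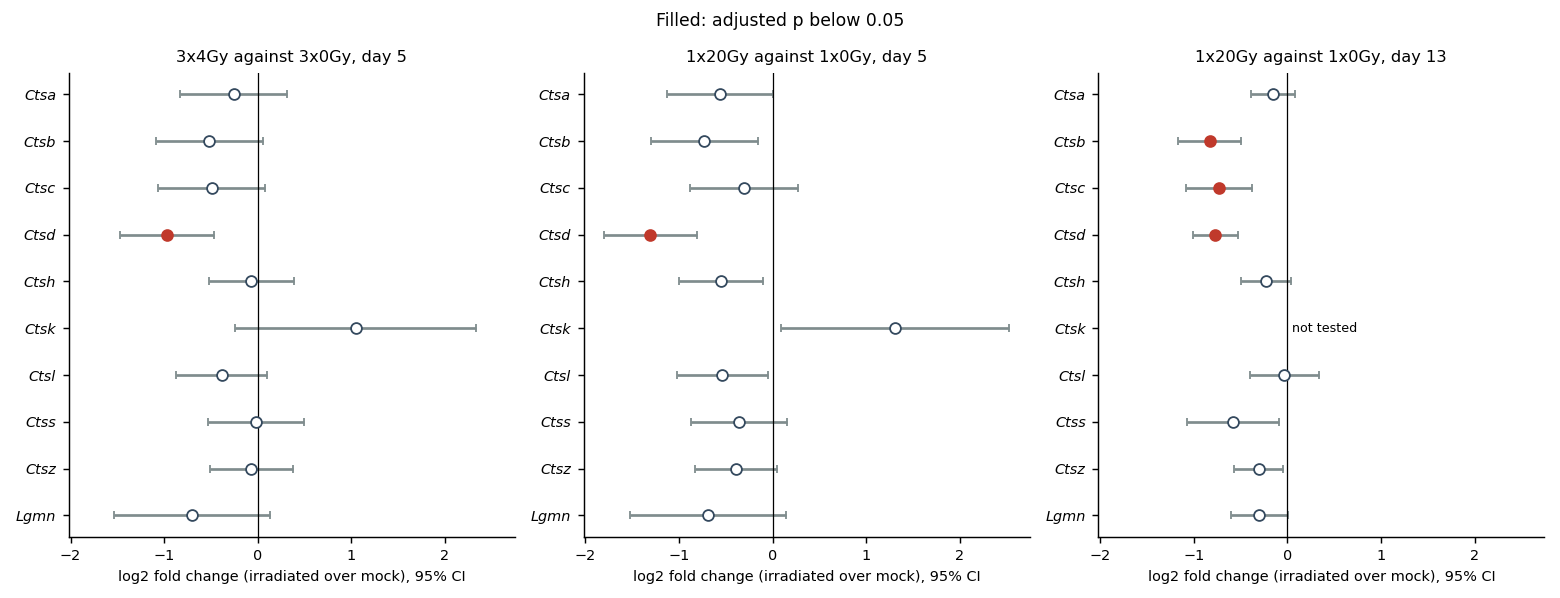
Log2 fold change of each gene, irradiated over mock, with its 95% confidence interval in the 3 comparisons; filled points passed an adjusted p of 0.05. Ctsd is filled in all 3 panels, at -0.97, -1.30 and -0.77, and Ctsb and Ctsc only at day 13.

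Library totals ranged over 2641229 to 7541144 counts in genes. Together the 10 genes made up 1.28 ± 0.208% of gene counts in 3x4Gy (SD, n = 6) and 1.59 ± 0.483% in 3x0Gy (n = 4). They made up 1.09 ± 0.251% in 1x20Gy at day 5 (n = 6) and 1.71 ± 0.321% in 1x0Gy (n = 4), and 0.823 ± 0.161% in 1x20Gy at day 13 (n = 7) and 1.42 ± 0.167% in 1x0Gy (n = 4). The groups overlapped in the first of these pairs and not in the other two. Ctss, which passed no test, held most of these counts, with group means of 49.7% in 1x20Gy at day 13 to 62.3% in 3x4Gy. These percentages use gene totals without TMM scaling. With library size alone, the median log2 fold change of all genes at day 13 was also lower, at -0.225. In bulk samples such as these, fewer cells of a type and less RNA per cell cannot be told apart. One mock library stood apart: replicate 2 of 3x0Gy had 5.65% of reads outside annotated genes, against a group mean of 16.1%, and held the highest level in its group for all of the 10 genes but Ctsd. Among the 3x4Gy libraries, replicate 1 was lowest for Ctsb, Ctsc, Ctsk, Ctsl, Ctsz and Lgmn. Levels below are CPM (read counts scaled to library size, with TMM factors within each day), values after ± are SDs over the libraries of a group, and days are not set against each other because day and experiment cannot be told apart here.

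Per kilobase of exon, Ctss, a cysteine protease active also at neutral pH, had the highest level of the 10 in every group. It averaged 5972 CPM per kb in 3x4Gy and 6063 in 3x0Gy, 5222 in 1x20Gy at day 5 and 6686 in 1x0Gy, and 3284 in 1x20Gy at day 13 and 4907 in 1x0Gy. Its lowest library lay above the highest library of the next gene in each group. Ctsd came second in all 3 mock groups and in 1x20Gy at day 13. In both irradiated groups of day 5 the mean of Ctsz, a carboxypeptidase, stood just above that of Ctsd. Ctsz averaged 397 CPM per kb against 375 for Ctsd in 3x4Gy, and 341 against 333 in 1x20Gy. The libraries of Ctsd and Ctsz overlapped in every group but 1x0Gy at day 13, so their order is not beyond the spread elsewhere. Lgmn, Ctsb, Ctsc, Ctsh and Ctsa filled the middle. Ctsl was ninth and Ctsk last throughout, each clear of the gene above it. Of the 9 steps between neighbours in the order, 5 overlapped in 3x4Gy and 6 in 3x0Gy, 6 in 1x20Gy and 6 in 1x0Gy at day 5, and 3 in 1x20Gy and 2 in 1x0Gy at day 13. Length here was the union of all exons that GENCODE annotates for a gene, and the order depends on that choice. In plain CPM, Ctsz averaged 572 in 3x4Gy, below Ctsd at 881 and Ctsb at 1133. In 1x20Gy at day 5 the same genes averaged 491, 782 and 1048 CPM.

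**Figure D2:**
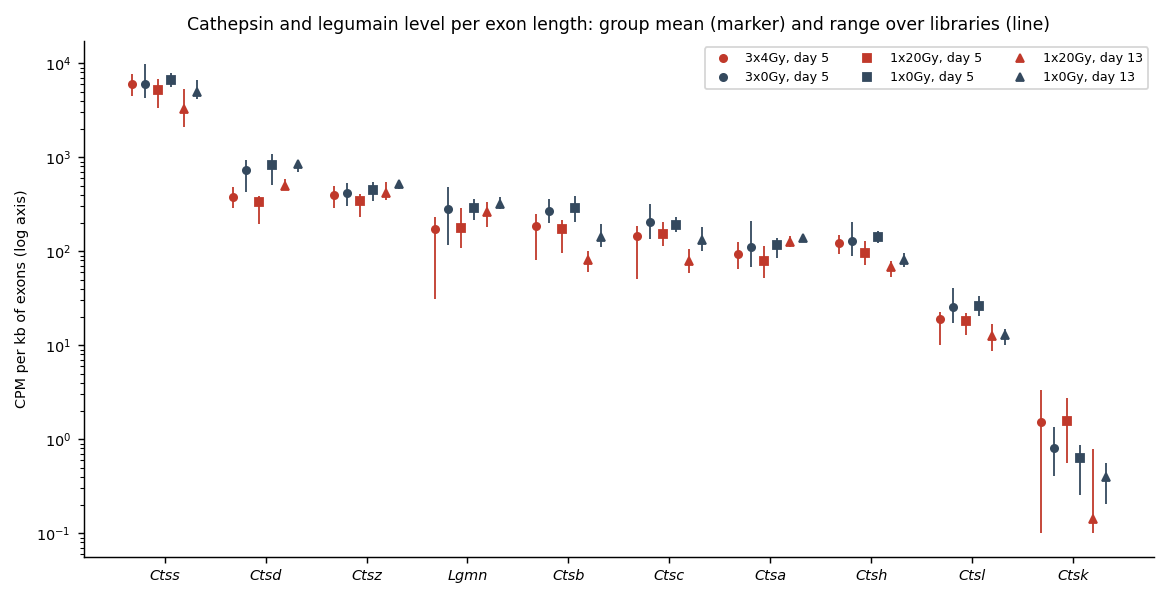
Level of each gene per kilobase of exon (log axis, CPM per kb) by group. Markers are group means, and lines run from the lowest to the highest library. Lines whose lowest library is at 0 are cut short at the foot. Ctss lies above the other 9 genes in all 6 groups and Ctsk below them.

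Ctsd encodes cathepsin D, the main aspartic protease of lysosomes. The gene lies at chr7:142375911-142388038 on the minus strand (GRCm38), with 2351 bases of exon. After 3x4Gy it measured 672 at the lowest, 872 at the median and 1148 CPM at the highest, against 1928, 1748, 1008 and 2217 CPM in 3x0Gy. The groups overlapped through 1 mock library, replicate 3, which lay below the highest 2 irradiated libraries. The difference was a log2 fold change -0.97, SE 0.24, adjusted p = 0.0101, with a 95% confidence interval of -1.47 to -0.47. At day 5 after 1x20Gy, Ctsd measured 453 at the lowest, 833 at the median and 903 CPM at the highest, against 1507, 1188, 2559 and 2473 CPM in 1x0Gy, and no irradiated library reached the lowest mock. That fold change was the largest of the 3 (log2 fold change -1.30, SE 0.24, adjusted p = 0.00152; interval -1.80 to -0.81). At day 13 Ctsd measured 1051 at the lowest, 1169 at the median and 1386 CPM at the highest after 1x20Gy, against 2081, 1649, 2199 and 2013 CPM in 1x0Gy, again without overlap (log2 fold change -0.77, SE 0.11, adjusted p = 0.00139; interval -1.01 to -0.53). Of all genes tested, groups that did not overlap and were lower after irradiation made up 5.67% for 3x4Gy, where none of the 10 genes did so, 6.07% for 1x20Gy at day 5, where Ctsd did, and 3.97% at day 13, where Ctsd and Ctsb did. All 3 calls held when any 1 library was left out. Markers of other cells moved with the same groups, with fibroblast markers lower in 5 of 6 after 3x4Gy, epithelial markers in 5 of 8 after 1x20Gy at day 5 and macrophage markers in 3 of 13 at day 13. With the epithelial and fibroblast marker mean in the fit, Ctsd was -0.86 after 3x4Gy (adjusted p = 0.298) and -1.22 after 1x20Gy at day 5 (adjusted p = 0.105), and at day 13 it was -0.78 and stayed called (adjusted p = 0.0125). With the macrophage marker mean in the fit, the day 13 value was -0.85 (adjusted p = 0.389), and edgeR called 0 of all genes there, against 891 without it. Both day 5 calls of Ctsd held with that mean in the fit.

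The windows of 250 bases before the transcription start of 8 of the 10 genes were read from RefSeq's table (GRCm38.p6); Ctsb and Ctsh had none in that table. They are shown because several of the genes were lower together at day 13, and because lysosomal genes are known to carry the CLEAR element, a site bound by the MiT family factors such as TFEB. The searched motifs were chosen with results of these data known, and a match is only a description of letters. The CLEAR core TCACGTGA, which contains the E-box CACGTG, was found in the Ctsd window and in 1 of 2 Ctsa windows, and in 0.785% of all 32851 windows (both strands searched). Both sites overlap stretches that GENCODE annotates as untranslated exon, and are given here with the core in capitals, 99 and 13 bases before the start.
Ctsd site, chr7:142387908-142387937, minus strand: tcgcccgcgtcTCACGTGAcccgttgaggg
Ctsa site, chr2:164833749-164833772, plus strand: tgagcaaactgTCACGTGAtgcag
The plain E-box lay in the windows of Ctsd, Ctsl, Lgmn and Ctsa, and in 6.02% of all windows. Those windows of Ctsl, Lgmn and Ctsa, with the Ctsa CLEAR site, lie wholly inside the gene as GENCODE annotates it. They come before a start that RefSeq's table gives, not before the whole gene. The PU.1 core with flank, GAGGAAGT, a sequence of the myeloid factor PU.1, was found in Ctsc and in 2.44% of windows. The core of the interferon-stimulated response element was found in Ctss and in 2.98% of windows. GC boxes (GGGCGG) lay in Ctsc, Ctsd, Ctss, Ctsz and Lgmn, and in 32.7% of windows. The variant M-box TCATGTGA and the cyclic AMP element TGACGTCA were in none of the windows searched, and in 0.846% and 1.55% of all. The windows of Ctsc and Ctss follow, with the matches of these 7 motifs, on either strand, in capitals; they were chosen after seeing the results, Ctsc as a gene lower at day 13 and Ctss as the gene with the highest level.
Ctsc window, chr7:88277835-88278084, plus strand: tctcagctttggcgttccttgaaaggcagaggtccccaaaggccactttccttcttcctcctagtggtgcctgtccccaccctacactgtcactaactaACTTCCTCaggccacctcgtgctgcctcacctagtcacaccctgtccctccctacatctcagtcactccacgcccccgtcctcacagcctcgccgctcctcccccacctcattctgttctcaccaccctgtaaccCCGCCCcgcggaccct
Ctss window, chr3:95526536-95526785, plus strand: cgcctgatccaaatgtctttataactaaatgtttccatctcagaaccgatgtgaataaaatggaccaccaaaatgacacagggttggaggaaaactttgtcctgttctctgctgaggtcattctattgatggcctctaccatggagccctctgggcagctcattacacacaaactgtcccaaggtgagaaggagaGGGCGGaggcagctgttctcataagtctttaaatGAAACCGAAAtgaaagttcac

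Among the other endopeptidases, Ctsb, a cysteine cathepsin that also cuts dipeptides from the ends of proteins, was called only at day 13. Its level after 1x20Gy was 362 at the lowest, 466 at the median and 608 CPM at the highest, against 679, 714, 1175 and 878 CPM in 1x0Gy. No irradiated library reached the lowest mock (log2 fold change -0.83, SE 0.16, adjusted p = 0.00492; interval -1.16 to -0.50). The call was lost with each of 3 covariates: Ctsb was -0.72 with the epithelial and fibroblast marker mean (adjusted p = 0.0541), -0.41 with the macrophage marker mean (adjusted p = 0.980) and -0.64 with the percentage of reads that fell outside genes (adjusted p = 0.056). At day 5 Ctsb was 1133 ± 384 CPM in 3x4Gy and 1624 ± 448 CPM in 3x0Gy (log2 fold change -0.52, SE 0.28, adjusted p = 0.219). It was 1048 ± 271 CPM in 1x20Gy and 1735 ± 570.0 CPM in 1x0Gy at day 5 (log2 fold change -0.73, SE 0.28, adjusted p = 0.108), and both pairs of groups overlapped. The gene lies at chr14:63122462-63145923 on the plus strand, and Fdft1 overlaps it on the other strand.

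Ctss, the high-level endopeptidase, was 8111 ± 1754 CPM in 3x4Gy and 8234 ± 3458 CPM in 3x0Gy at day 5 (log2 fold change -0.02, SE 0.25, adjusted p = 0.964). In the single-dose pair it was 7092 ± 2111 CPM in 1x20Gy and 9079.8 ± 1569.7 CPM in 1x0Gy (log2 fold change -0.36, SE 0.25, adjusted p = 0.421) at day 5. At day 13 it was 4459 ± 1676 CPM in 1x20Gy and 6664 ± 1591 CPM in 1x0Gy (log2 fold change -0.58, SE 0.23, adjusted p = 0.142). The groups overlapped in each comparison and none passed the test. Ctsl, a broad cysteine endopeptidase, ran over 65.4 to 147 CPM in 3x4Gy and 112 to 267 CPM in 3x0Gy, 84.1 to 144 CPM in 1x20Gy and 134 to 215 CPM in 1x0Gy at day 5, and 55.9 to 109 CPM in 1x20Gy and 65 to 97.8 CPM in 1x0Gy at day 13. Its log2 fold changes were -0.39 (SE 0.24, adjusted p = 0.285), -0.54 (SE 0.23, adjusted p = 0.165) and -0.03 (SE 0.17, adjusted p = 0.932) for 3x4Gy, 1x20Gy at day 5 and 1x20Gy at day 13. Ctsk, the collagen-cutting cathepsin best known from bone-resorbing osteoclasts, had 0 to 24 counts per library at day 5 and 0 to 4 at day 13, where 5 of 7 1x20Gy libraries held none. Its fold changes at day 5, 1.05 (SE 0.62, adjusted p = 0.273) and 1.31 (SE 0.59, adjusted p = 0.181), were the only ones above 0 and rest on these few counts. Of 3 tested osteoclast markers, 1 was called higher in each comparison, Ocstamp after 3x4Gy and Mmp9 after 1x20Gy at both days. At day 13 the other 2 fold changes were below 0. The list summed to 50.4 to 100.1 CPM in 3x4Gy and 38.4 to 80.7 in 3x0Gy, and to 68.1 to 103 in 1x20Gy and 39.8 to 73.2 in 1x0Gy at day 5. Its part in the Ctsk values was not tested. At day 13 Ctsk fell below the filter on low counts and was not tested.

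Of the exopeptidases, Ctsc, the dipeptidyl peptidase that activates the serine proteases of granules, was called at day 13. It measured 343 at the lowest, 455 at the median and 607 CPM at the highest after 1x20Gy, against 579.8, 678, 1055 and 729 CPM in 1x0Gy, with 1 of the irradiated libraries above the lowest mock (log2 fold change -0.73, SE 0.17, adjusted p = 0.0139; interval -1.09 to -0.38). Without replicate 3 of the 1x0Gy mocks, which held the highest value, the Ctsc fold change was -0.53 with an adjusted p of 0.0859. With the same 3 covariates it was -0.69, -0.09 and -0.69 (adjusted p = 0.0923, 0.986 and 0.0678). At day 5 Ctsc was 840.1 ± 290.3 CPM in 3x4Gy and 1183 ± 492 CPM in 3x0Gy (log2 fold change -0.49, SE 0.28, adjusted p = 0.244), and 896 ± 195 CPM in 1x20Gy and 1104 ± 192 CPM in 1x0Gy (log2 fold change -0.30, SE 0.28, adjusted p = 0.573). The gene lies at chr7:88278085-88310888.

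Ctsz, which removes single residues from the carboxyl end, ran over 418 to 715 CPM in 3x4Gy and 432 to 759 CPM in 3x0Gy, 329.7 to 587 CPM in 1x20Gy and 498 to 796 CPM in 1x0Gy at day 5, and 501 to 779 CPM in 1x20Gy and 659 to 786 CPM in 1x0Gy at day 13. Its log2 fold changes were -0.07 (SE 0.21, adjusted p = 0.856), -0.39 (SE 0.21, adjusted p = 0.273) and -0.30 (SE 0.12, adjusted p = 0.144) in the same order. Ctsh, an aminopeptidase, ran over 418 to 663 CPM in 3x4Gy and 397 to 927 CPM in 3x0Gy, 322 to 575 CPM in 1x20Gy and 552 to 732 CPM in 1x0Gy at day 5, and 242 to 355 CPM in 1x20Gy and 304 to 429 CPM in 1x0Gy at day 13. Its fold changes were -0.07 (SE 0.22, adjusted p = 0.856), -0.55 (SE 0.22, adjusted p = 0.123) and -0.23 (SE 0.13, adjusted p = 0.294). Ctsa, a serine carboxypeptidase that protects lysosomal galactosidase and neuraminidase, ran over 305 to 589 CPM in 3x4Gy and 325 to 992 CPM in 3x0Gy, 247 to 537 CPM in 1x20Gy and 402 to 653 CPM in 1x0Gy at day 5, and 518 to 693 CPM in 1x20Gy and 641 to 678 CPM in 1x0Gy at day 13. Its fold changes were -0.26 (SE 0.27, adjusted p = 0.564), -0.56 (SE 0.27, adjusted p = 0.220) and -0.15 (SE 0.11, adjusted p = 0.444). Lgmn, the asparaginyl endopeptidase, ran over 72.2 to 544 CPM in 3x4Gy and 269 to 1116 CPM in 3x0Gy, 251 to 678 CPM in 1x20Gy and 505 to 832 CPM in 1x0Gy at day 5, and 423 to 768 CPM in 1x20Gy and 651 to 869 CPM in 1x0Gy at day 13. Its fold changes were -0.70 (SE 0.40, adjusted p = 0.253), -0.69 (SE 0.40, adjusted p = 0.321) and -0.30 (SE 0.14, adjusted p = 0.219). The irradiated and mock groups overlapped for all 4 genes in every comparison, and none passed the test. Leaving out the mock replicate 2 that stood apart turned the 3x4Gy fold change of Ctsa to 0.23, of Ctsh to 0.26, of Ctss to 0.30 and of Ctsz to 0.06, and left Ctsd at -0.97 (adjusted p = 0.0175).

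**Figure D3:**
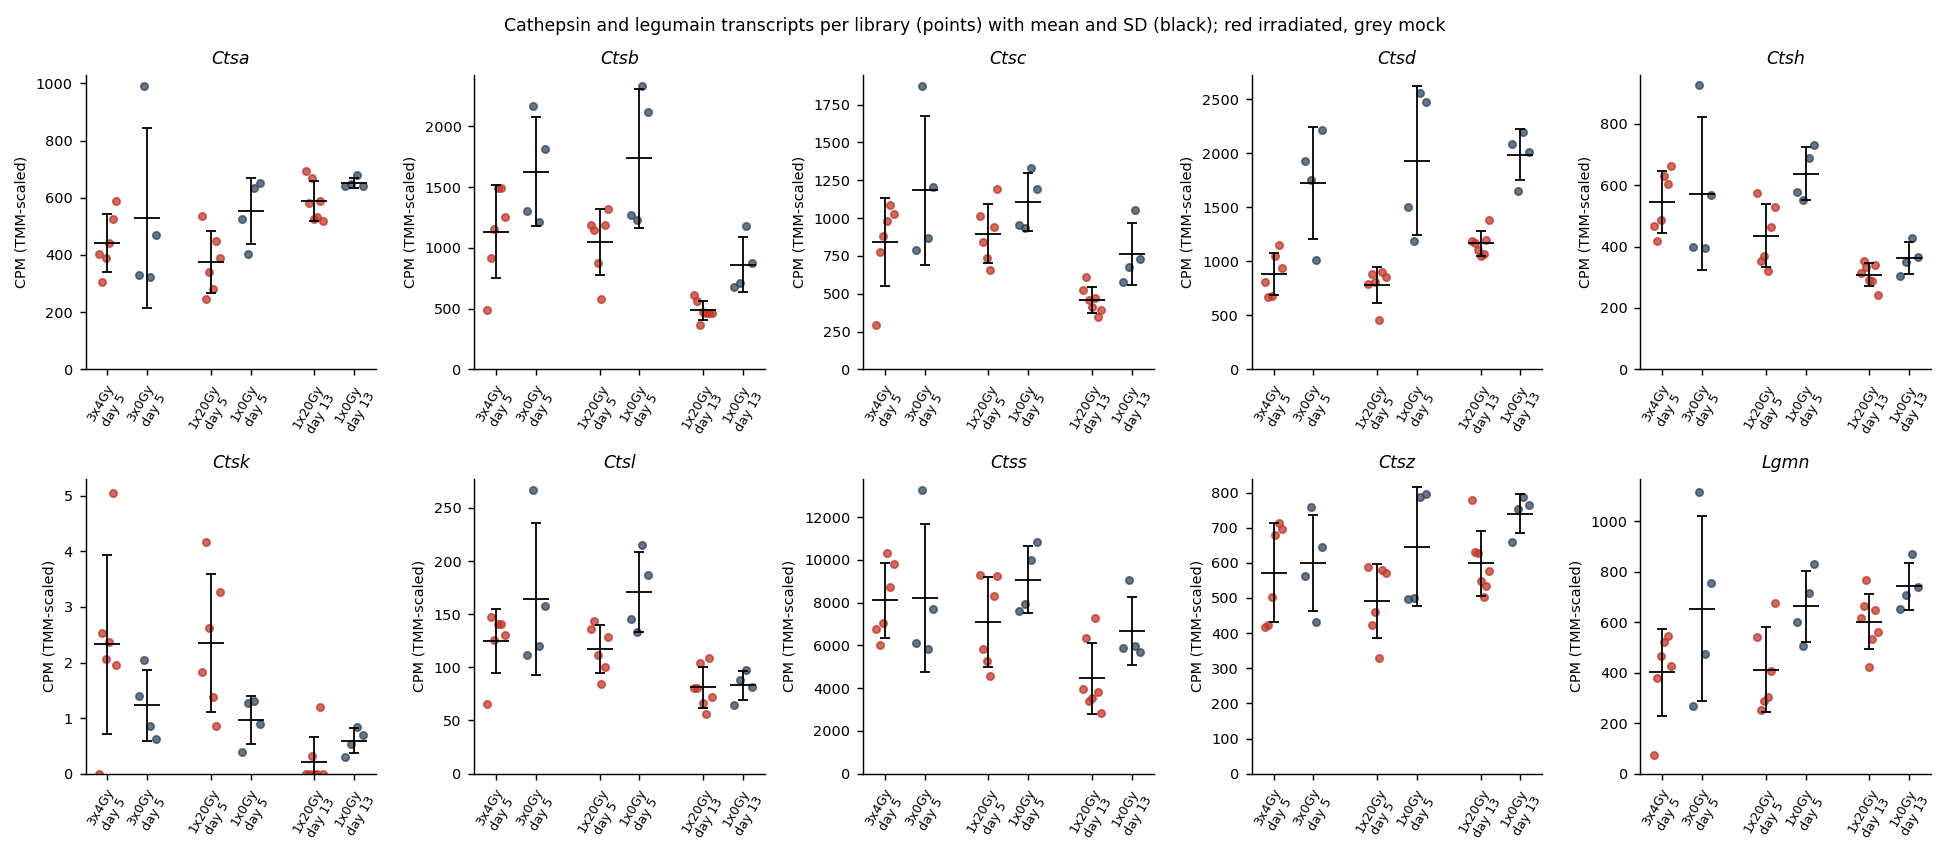
CPM of each gene in each library (points; red irradiated, grey mock) by group, with the mean and SD in black. For Ctsd the irradiated libraries lie below every mock library after 1x20Gy at both days.

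None of the 10 genes was called between the 2 mock groups of day 5, nor between the responses to the 2 regimens or at the 2 days. In 3x0Gy against 1x0Gy, edgeR called 0 of 10 (0 at an unadjusted p below 0.05, 0 by DESeq2), and 0% of all genes (667 genes unadjusted, 2 by DESeq2). For the difference between the response to 3x4Gy and that to 1x20Gy at day 5, edgeR called 0 of 10 (0 unadjusted, 0 by DESeq2), and 0% of all genes (714 unadjusted, 1 by DESeq2). For the Ctsd response that difference was 0.33 on the log2 scale (SE 0.34, adjusted p = 0.867, 95% interval -0.38 to 1.05). For the response to 1x20Gy at day 13 minus that at day 5, edgeR called 0 of 10 (1 unadjusted, Ctsk, and 0 by DESeq2), against 0.423% of all genes. That difference for the Ctsd response was 0.56 (SE 0.29, adjusted p = 0.445, interval -0.04 to 1.15). The call of Ctsb and Ctsc at day 13 and not at day 5 is therefore not shown to be a difference between days: the difference was -0.08 for Ctsb (adjusted p = 0.968) and -0.41 for Ctsc (adjusted p = 0.708). Each irradiated group has its own mocks, so the 3 comparisons share no samples.

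The mix of transcripts among the 10 genes was also set out, by each gene's share of their summed counts (an alternative chosen after seeing the data, 30 exact two-sided permutation tests). Ctsd made up 6.80 ± 0.963% of the counts of the 10 genes in 3x4Gy and 11.9 ± 4.08% in 3x0Gy (SD, n = 6 and 4; exact permutation p = 0.0286). It made up 6.89 ± 1.51% in 1x20Gy at day 5 and 11.4 ± 1.94% in 1x0Gy, without overlap (exact permutation p = 0.00952, the smallest p that 6 against 4 allows). At day 13 it made up 13.8 ± 3.27% in 1x20Gy and 15.7 ± 3.00% in 1x0Gy (n = 7 and 4; exact permutation p = 0.352). Ctss took the larger part: 62.3 ± 3.92% in 3x4Gy and 53.4 ± 3.40% in 3x0Gy, without overlap (exact permutation p = 0.00952). It took 60.4 ± 2.66% in 1x20Gy at day 5 and 55.3 ± 3.04% in 1x0Gy (exact permutation p = 0.0381). At day 13 it took 49.7 ± 8.70% in 1x20Gy and 51.5 ± 7.31% in 1x0Gy (exact permutation p = 0.679). No share passed after adjustment over the 30 tests, the smallest adjusted p being 0.143.

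Across the 31 libraries the genes moved together in most pairs, measured as correlations of log2 CPM after subtracting each group's mean, with permutation within groups. Both Pearson's r and Spearman's rho had an adjusted p below 0.05 in 31 of 45 pairs, and in 30 of the 36 pairs without Ctsk. Those 36 values of r ran from 0.263 to 0.899 with a median of 0.651. Most of the 36 pairs had a lower r within day 13 than within day 5. The highest was Ctsa with Ctsh (r = 0.899, rho = 0.888; permutation p = 1e-05 for each, the smallest the 1e+05 resamples give; r = 0.837 without the 2 farthest libraries). Within days it was 0.943 at day 5 (n = 20) and 0.557 at day 13 (n = 11). Ctsb with Ctsc gave r = 0.882 and rho = 0.874 (permutation p = 1e-05 for each; r = 0.830 without the 2 farthest, 0.911 at day 5 and 0.732 at day 13). Ctsc with Lgmn gave r = 0.885 and rho = 0.827 (permutation p = 1e-05 for each; r = 0.761 without the 2 farthest, 0.951 at day 5 and 0.437 at day 13). Ctsd with Ctsz gave r = 0.754 and rho = 0.686 (permutation p = 0.00033 and 0.00107; r = 0.666 without the 2 farthest), at 0.824 within day 5 and 0.132 within day 13, where the relation did not hold. Ctsd with Ctsb gave r = 0.658 and rho = 0.675 (permutation p = 0.00112 and 0.00096; r = 0.675 without the 2 farthest, 0.696 at day 5 and 0.392 at day 13). Ctsd with Ctss did not pass, at r = 0.339 and rho = 0.324 (permutation p = 0.0822 for each), with 0.584 at day 5 and -0.567 at day 13. Ctsd with Lgmn did not pass either, at r = 0.263 and rho = 0.359 (permutation p = 0.239 and 0.0707). Genes of one library share its depth and its mix of cells, and the part of either in these correlations was not tested. Among 9594 other genes of at least 5 CPM on average, those most like the mean standardised deviation of the 10 were Psap (r = 0.951), which encodes the precursor of the saposins, C1qc (0.949), a complement gene that is also 1 of the macrophage markers, and Itm2b (0.940).

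**Figure D4:**
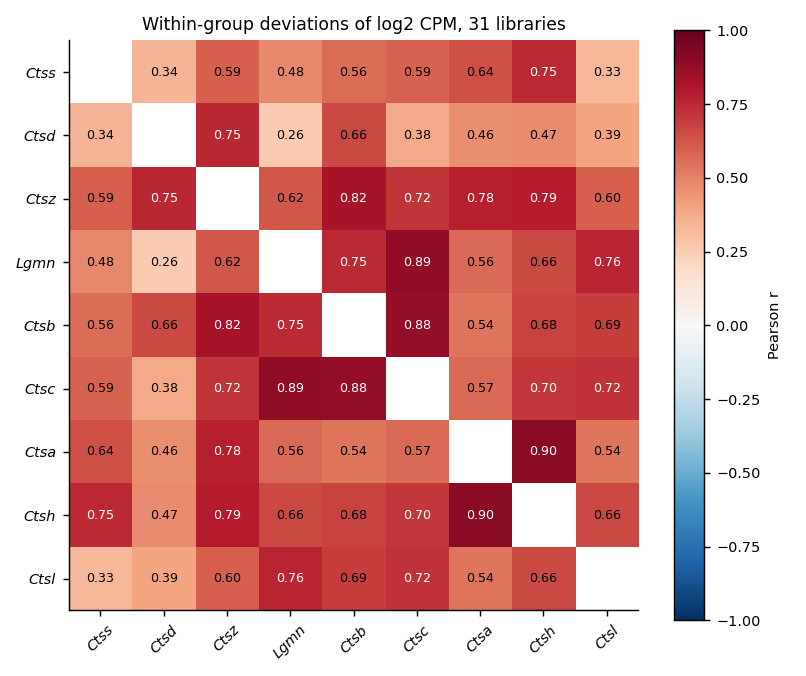
Pearson's r between the log2 CPM of 9 of the genes, as deviations from group means, over 31 libraries (Ctsk left out for its low counts). The values run from 0.263 for Ctsd with Lgmn to 0.899 for Ctsa with Ctsh.

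Genes of other lysosomal lists were called in each comparison, and no list was tested against the share of all genes called. That share was 7.09% lower and 5.2% higher after 3x4Gy, 4.88% and 3.67% after 1x20Gy at day 5, and 3.83% and 4.22% at day 13. The day 5 counts of hydrolases below lie under these shares. At day 13 the share lower stands beside 8 of 30 hydrolases and 4 of 9 membrane proteins. In the test of the response to 1x20Gy at day 13 minus that at day 5, edgeR called 0 of 30 lysosomal hydrolases (0 unadjusted, 0 by DESeq2; 16 above and 14 below 0) and 0 of 9 lysosomal membrane proteins (0 unadjusted, 0 by DESeq2), so the counts by day below are not shown to differ. Of 30 further lysosomal hydrolases, 1 rose and 1 fell after 3x4Gy. None of the 30 passed in 1x20Gy at day 5 (8 at an unadjusted p below 0.05; DESeq2 called 3 lower), and 8 fell at day 13 (DESeq2 called 9 lower and 2 higher). At day 13, Tpp1, a tripeptidyl peptidase, measured 50.6 ± 4.07 CPM in 1x20Gy and 83.1 ± 17.8 CPM in 1x0Gy (log2 fold change -0.72, SE 0.13, adjusted p = 0.00435). The 3x4Gy changes were Gla, an alpha-galactosidase, at 60 ± 20.5 CPM in 3x4Gy and 31.8 ± 5.92 CPM in 3x0Gy (log2 fold change 0.91, SE 0.21, adjusted p = 0.00689), and Smpd1, the acid sphingomyelinase (log2 fold change -0.68, SE 0.22, adjusted p = 0.0473). The median log2 fold change of the list was -0.07 after 3x4Gy, -0.20 after 1x20Gy at day 5 and -0.31 at day 13.

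Of 9 lysosomal membrane proteins 4 fell at day 13 (6 by DESeq2), 1 after 1x20Gy at day 5 and 0 after 3x4Gy (2 unadjusted; DESeq2 called 1 higher). At day 13, Gpnmb, a transmembrane glycoprotein of lipid-laden macrophages, measured 26.6 ± 6.96 CPM in 1x20Gy and 123 ± 38.3 CPM in 1x0Gy (log2 fold change -2.21, SE 0.21, adjusted p = 6.4e-05). Day 5 gave it 27.9 ± 13.9 CPM in 1x20Gy and 75.8 ± 35.7 CPM in 1x0Gy (log2 fold change -1.44, SE 0.40, adjusted p = 0.0258). Cd63, a tetraspanin of late endosomes, measured 1977 ± 268 CPM in 1x20Gy and 3075 ± 281 CPM in 1x0Gy at day 13 (log2 fold change -0.64, SE 0.12, adjusted p = 0.00515). Of 9 activators and transporters, Psap fell at day 13, at 4338 ± 402 CPM in 1x20Gy and 6349 ± 845 CPM in 1x0Gy (log2 fold change -0.55, SE 0.12, adjusted p = 0.0108), and Npc1, a cholesterol exporter, fell after 1x20Gy at day 5 (log2 fold change -0.48, SE 0.15, adjusted p = 0.0499). The vacuolar ATPase, which acidifies lysosomes, had 1 of 15 tested subunits lower at day 13, Atp6v1a (log2 fold change -0.45, SE 0.12, adjusted p = 0.0311); 7 had an unadjusted p below 0.05 and DESeq2 called 5 lower.

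Of 4 MiT family factors, Tfe3 rose after 3x4Gy (log2 fold change 0.54, SE 0.17, adjusted p = 0.0377). Tfec measured 9.03 ± 3.67 CPM in 1x20Gy and 22 ± 6.08 CPM in 1x0Gy at day 13 (log2 fold change -1.28, SE 0.27, adjusted p = 0.00947) and Mitf 27.3 ± 3.61 CPM in 1x20Gy and 41.4 ± 4.23 CPM in 1x0Gy (log2 fold change -0.60, SE 0.13, adjusted p = 0.0118). Of 6 genes of mannose 6-phosphate sorting, Gnptab, a subunit of the enzyme that makes the tag, fell after 1x20Gy at day 5 (log2 fold change -0.52, SE 0.15, adjusted p = 0.0336). Of the 4 other cathepsins tested at day 5, Ctsf fell after 3x4Gy (log2 fold change -1.62, SE 0.52, adjusted p = 0.0431). Of 3 serine proteases that cathepsin C activates, Cma1, a chymase of mast cells, rose after 1x20Gy at day 5 (log2 fold change 2.44, SE 0.51, adjusted p = 0.00420). Among 9 genes of class II presentation, H2-DMb1 rose after 3x4Gy, at 863 ± 229 CPM in 3x4Gy and 430.1 ± 136 CPM in 3x0Gy (log2 fold change 1.00, SE 0.22, adjusted p = 0.00497), and H2-Aa fell at day 13 (log2 fold change -0.50, SE 0.14, adjusted p = 0.0399). Of the 3 cystatins, inhibitors of cysteine cathepsins, edgeR called 0 at each comparison; 0, 0 and 3 had an unadjusted p below 0.05, and DESeq2 called 1 higher at day 13.

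**Figure D5:**
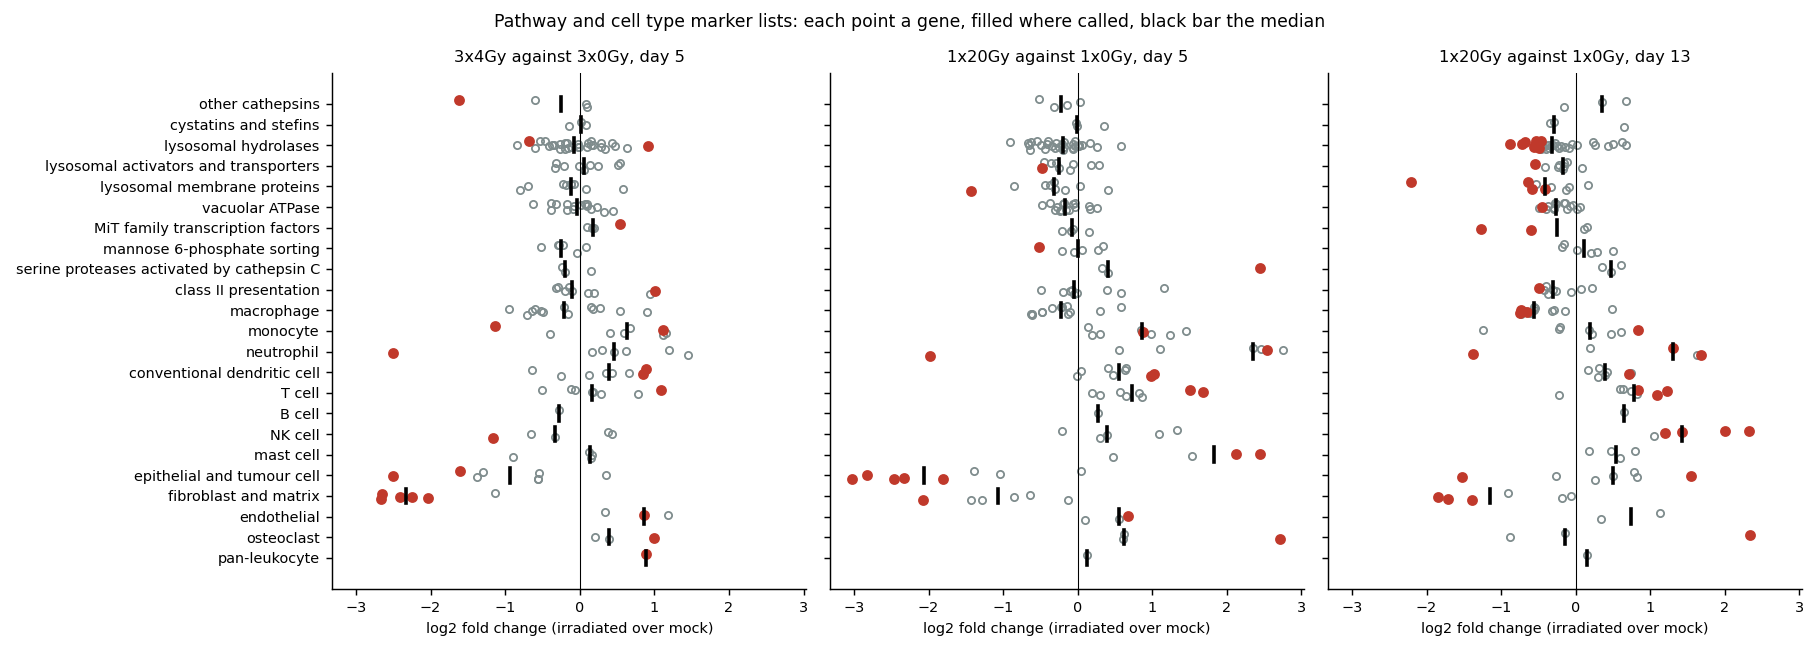
Log2 fold change, irradiated over mock, of the genes in each pathway and cell type marker list (points; filled where called; black bar the median). At day 13 the lysosomal hydrolases hold 8 filled points below 0 and 0 above.

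Markers of other cells differed between the same groups. Macrophage markers, 13 genes, summed to 5463 to 11395 CPM in 3x4Gy and 6758 to 20589 in 3x0Gy, to 4632 to 10917 in 1x20Gy and 8092 to 11947 in 1x0Gy at day 5, and to 6214 to 9115 in 1x20Gy and 8541 to 11545 in 1x0Gy at day 13. Of these 13, edgeR called 0 at day 5 in either comparison (3 unadjusted after 3x4Gy and 1 after 1x20Gy, 0 by DESeq2). At day 13, 3 were called lower (9 unadjusted, 4 lower by DESeq2). Fold changes of the 13 were below 0 for 8 after 3x4Gy, 11 after 1x20Gy at day 5 and 12 at day 13. Their median log2 fold changes were -0.21, -0.22 and -0.56 in the same order. Fibroblast markers summed to 41.2 to 100.1 CPM in 3x4Gy and 200.0 to 267 in 3x0Gy, with 5 of 6 tested lower; 1 of 6 was lower after 1x20Gy at day 5 and 3 of 6 at day 13. Epithelial and tumour cell markers summed to 153 to 506 CPM in 1x20Gy and 429 to 617 in 1x0Gy at day 5, with 5 of 8 lower, and to 161 to 700.0 in 3x4Gy and 478 to 1095 in 3x0Gy, with 2 of 8 lower. At day 13 that list summed to 673 to 1931 in 1x20Gy and 647 to 878 in 1x0Gy, with 1 of 7 higher, 1 lower and 5 of 7 fold changes above 0. No marker of these 3 lists was at 0 in any group. T cell markers were higher in 1 of 8 after 3x4Gy, 2 of 8 after 1x20Gy at day 5 and 3 of 8 at day 13. Of 5 NK cell markers, 1 was lower after 3x4Gy, none was called after 1x20Gy at day 5 (1 unadjusted; DESeq2 called 1 higher) and 4 were higher at day 13. Conventional dendritic cell markers were higher in 2, 2 and 1 and monocyte markers in 1, 1 and 1 of those tested after 3x4Gy, 1x20Gy at day 5 and 1x20Gy at day 13, and 1 monocyte marker was lower after 3x4Gy. Mast cell markers were higher in 2 of 4 after 1x20Gy at day 5, Cma1 among them. Of the neutrophil markers, Ly6g was at 0 in every group, and Lcn2, named here after its values were seen, was lower in all 3 comparisons, at log2 fold changes of -2.51 (SE 0.48, adjusted p = 0.00154), -1.98 (SE 0.49, adjusted p = 0.0124) and -1.38 (SE 0.29, adjusted p = 0.00910). Of the other neutrophil markers tested, none was called after 3x4Gy, 1 was higher after 1x20Gy at day 5 and 2 were higher at day 13. Ptprc, which encodes the sorting antigen, was higher after 3x4Gy (log2 fold change 0.89, SE 0.26, adjusted p = 0.0262).

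The share of reads outside annotated genes averaged 24.1% in 3x4Gy and 16.1% in 3x0Gy, and with it as a covariate Ctsd was -0.82 after 3x4Gy (adjusted p = 0.116). The Ctsd calls after 1x20Gy held with this covariate at both days. Beyond the fits with covariates, the part of the markers in each fold change was not tested. Several genes of the family share their place with other annotated genes: Gm49369 lies on the strand of Ctsd, Neurl2 and Pltp overlap Ctsa, Nelfcd overlaps Ctsz, and the strand setting of the counting is not given in the sources used here.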

How the data were processed

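RNA was from CD45.2+ cells sorted from AT3-OVA tumours. Per the labels' protocols RNA integrity numbers were high. Per the submitters' processing notes, reads were handled with bcl2fastq 2.20.0.422, cutadapt 1.5, HISAT2 2.0.4 and HTSeq 0.9.1 on GRCm38; the annotation, strand setting and filters are not given in the sources used here. The authors deposited raw counts of reads per gene, and the 5 summary lines of each table were left out of totals. Counts were tested with edgeR 4.0.16 in R 4.3.3: TMM scaling, filterByExpr (minimum count 10, minimum total 15), the quasi-likelihood test and Benjamini-Hochberg adjustment over all genes. Day 5 (20 libraries, 4 groups) and day 13 (11 libraries, 2 groups) were fitted apart, and all 31 together for the difference between days. DESeq2 1.42.0 was an alternative, and the fits were tested on simulated data. The SE is the fold change divided by the root of F. log2 CPM values used a prior count of 2. Replicates of a group differed beyond sampling noise in every pair (chi-square per degree of freedom 3.67 to 69.3). Alternatives were other scalings, no filter, covariates, a replicate block and leaving out libraries. Exact permutation tests and correlations used Python 3.11.15 and SciPy 1.17.1. Named genes were the 10 and, in each pathway list, at most the 2 largest called changes in each direction per comparison, of which 1 is not reported here; cell type marker lists were given by counts and sums. The members, gene lists and tests were chosen with earlier results of these data known. Gene positions came from GENCODE's annotation of GRCm38.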

Additional observations from a re-analysis of the deposited data

Results flagged for a closer look

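Of 60 group and gene pairs tested on log2 CPM (prior count 2), 7 held a library further from their group than Dixon's 95% limit. Chance flags about 1 in 20. Values below are plain CPM, on which the gaps differ. In replicate 1 of 3x4Gy, 4 genes were lowest by a wide gap: Ctsc at 291.1 CPM (next library 777.6), Ctsl at 65.43 (126.1), Lgmn at 72.2 (379.7) and Ctsk at 0 (1.963). In replicate 4 of 1x20Gy at day 5, Ctsd was lowest at 453.2 CPM, against 786.4 in the next library. In replicate 6 of 1x20Gy at day 13, Ctsk was highest at 1.205 CPM, against 0.3108. The Ctsk flags rest on libraries with 0 counts (3x4Gy replicate 1) and 4 counts (1x20Gy replicate 6 at day 13). In replicate 2 of 1x0Gy at day 13, Ctss was highest at 9044 CPM, against 5992. Without 3x4Gy replicate 1 the Ctsd fold change after 3x4Gy was -0.95 (edgeR, adjusted p = 0.0185).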

How the results depend on the processing

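The direction and call of Ctsd held in all 3 comparisons under DESeq2, RLE size factors, upper quartile scaling, library size alone, no filter, the replicate block and each left-out library. With a library left out, Ctsd was -1.16 to -0.83 after 3x4Gy, -1.48 to -1.14 after 1x20Gy at day 5 and -0.85 to -0.72 at day 13, and 1, 1 and 2 to 4 genes of the family were called. Ctsc at day 13 lost its call without replicate 3 of 1x0Gy, as given above, and Ctss (-0.74) and Ctsz (-0.37) gained one without replicates 5 and 1 of 1x20Gy. With library size alone 3 genes were called after 1x20Gy at day 5 and 7 at day 13, and the median of all genes shifted to -0.104 after 3x4Gy, -0.109 and -0.225. With only the 2 groups in the fit 4 were called after 1x20Gy at day 5. With the epithelial and fibroblast covariate 0, 0 and 1 were called, with the macrophage covariate 0 at day 13 (0 of all genes), and with the share of reads outside genes 0 after 3x4Gy. Calls lost at day 13 under all 3 of these covariates were Ctsb at -0.72 (adjusted p = 0.0541), -0.41 (0.980) and -0.64 (0.056), and Ctsc at -0.69 (0.0923), -0.09 (0.986) and -0.69 (0.0678). Ctsd lost its day 13 call with the macrophage covariate, at -0.85 (0.389). With the epithelial and fibroblast covariate it lost both day 5 calls, at -0.86 after 3x4Gy (0.298) and -1.22 after 1x20Gy (0.105). With reads outside genes Ctsd lost the 3x4Gy call, at -0.82 (0.116), and kept its calls after 1x20Gy at both days. With the macrophage covariate it kept both day 5 calls. Calls gained after 1x20Gy at day 5 were Ctsb -0.86 and Ctsh -0.69 (library size), and Ctsb -0.73, Ctsh -0.56 and Ctsl -0.54 (2 groups). Those gained at day 13 were Ctsh -0.47, Ctss -0.80, Ctsz -0.54 and Lgmn -0.53 (library size), and Ctss -0.65 (replicate block) and -0.92 (reads outside genes). The cause of these changes was not tested. Samples with the same replicate number correlated between -0.26 and 0.40, so the numbers were not taken to pair them. The block took the called genes of the family at day 13 to 4 and the day difference to 16 of all genes.

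Counts over all genes moved by over 1.5 times for 3x4Gy (1477) to 104 with the epithelial and fibroblast covariate, 667 with reads outside genes and 702 with 2 groups. They moved for 1x20Gy at day 5 (1028) to 87 with the first of these, and for day 13 (891) to 1533 with library size, 361 with the epithelial and fibroblast covariate and 0 with the macrophage covariate. The day difference (51) moved to 5 with upper quartile scaling, 85 without a filter, 16 with the block, 11 and 117 with the epithelial and fibroblast and the macrophage covariates, and 228 by DESeq2. With a library left out the counts were 1132 to 1815 for 3x4Gy, 556 to 1024 for 1x20Gy at day 5 (582 and 556 without 1x0Gy replicates 3 and 4), 306 to 1264 at day 13 (588 and 306 without 1x0Gy replicates 2 and 3) and 1 to 110 for the day difference. The split of 625 higher and 852 lower after 3x4Gy became 325 and 1084 with library size and 450 and 1110 with upper quartile scaling. That of 441 and 587 after 1x20Gy at day 5 became 210 and 947, and 317 and 745, and that of 467 and 424 at day 13 became 222 and 1311 with library size.

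Uncalled fold changes turned sign after 3x4Gy for Ctsa 0.027, Ctsh 0.13, Ctss 0.20 and Ctsz 0.082 (macrophage covariate) and for Ctsa 0.15, Ctsh 0.19, Ctsl 0.00911, Ctss 0.24 and Ctsz 0.090 (reads outside genes). At day 13 they did so for Ctsh 0.051, Ctsl 0.052 and Ctss 0.15 (macrophage) and Ctsl 0.26 (reads outside genes). Between mocks they did so for Ctsb 0.030 and Lgmn 0.025 (macrophage) and Lgmn 0.047 (epithelial and fibroblast). For the day difference they did so for Ctsb 0.020 (epithelial and fibroblast) and 0.13 (macrophage), Ctss 0.067 (macrophage) and Ctsz -0.00852 (library size). For the regimen difference Lgmn turned to 0.054 (library size), 0.020 (no filter), 0.00609 (macrophage) and 0.038 (reads outside genes). With a library left out the sign turned between mocks for Ctsa (-0.58 to 0.11), Ctsb (-0.28 to 0.076), Ctsc (-0.23 to 0.25), Ctsd (-0.34 to 0.022), Ctsk (-0.11 to 0.50), Ctsl (-0.41 to 0.083), Ctsz (-0.26 to 0.021) and Lgmn (-0.42 to 0.24). It turned after 3x4Gy for Ctsa (-0.43 to 0.23), Ctsh (-0.21 to 0.26), Ctss (-0.15 to 0.30) and Ctsz (-0.20 to 0.059), and at day 13 for Ctsl (-0.14 to 0.051). It turned for the regimen difference in Ctsc (-0.34 to 0.14), Ctsk (-0.60 to 0.082) and Lgmn (-0.27 to 0.39), and for the day difference in Ctsb (-0.26 to 0.11) and Ctsz (-0.00537 to 0.22). Low counts limit Ctsk, and the number of libraries limits the width of every interval.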
